A study of Homo sapiens with 12 samples.

Results

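Excision and crosslink repair of platinum damage was followed through 31 genes, chosen by gene symbol and split by role into 11 genes of nucleotide excision, 11 of the Fanconi pathway (with its nuclease scaffold SLX4), 6 of homologous recombination and 3 of lesion bypass. All 31 had a row in both expression tables, which hold 29890 genes for the bladder cancer line 5637 and 58735 genes for the renal cancer line 786-O. The study asked by RNA sequencing what lowering CBX7, a subunit of the gene-silencing Polycomb repressive complex, does to gene expression in either line, and the series title ties CBX7 to how bladder cancer responds to cisplatin. The 4 groups were 5637 cells with a short hairpin against CBX7 (shCBX7), 5637 cells with a control hairpin, 786-O cells with shCBX7 and 786-O cells with the control hairpin, with 3 libraries each. All were grown in RPMI-1640 with serum, and the labels name no drug, so the values describe cells not labelled as given cisplatin. The labels give neither the number of hairpins nor the number of clones.

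Cisplatin joins neighbouring bases on a DNA strand and, less often, joins the opposite strands. Nucleotide excision cuts out the lesions within a strand. Fanconi proteins recognise a crosslink between strands at a stalled replication fork and open it with nucleases, bypass polymerases copy past the remnant, and homologous recombination mends the broken arm. The levels of these genes are often discussed in bladder cancer, where cisplatin is a standard treatment.

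CBX7 itself was lower in the shCBX7 libraries of both lines. Its level was 83.3% of the control mean in 5637 (log2 change -0.18, SE 0.0462, adjusted p = 0.0188) and 61.0% in 786-O (log2 change -0.40, SE 0.0762, adjusted p = 0.00364), and the groups overlapped in neither. The exact two-sided permutation p was 0.1 in each line, the smallest that 3 libraries against 3 can give. In 5637 the call was lost without shCBX7 library 2 (adjusted p = 0.0608) or control library 3 (adjusted p = 0.0586). Marker genes fitted the labelled lines in part. Keratins were abundant in 5637 (KRT5 averaged 265 FPKM in shCBX7 and 189 FPKM in control cells). The uroplakins UPK2, UPK3A and UPK1B, which mark differentiated urothelium, averaged at most 0.322 FPKM there. Some keratins were abundant in 786-O as well. KRT18 averaged 74.4 FPKM in shCBX7 and 55.3 FPKM in control cells of 786-O, and KRT19 averaged 210 and 179 FPKM. KRT5 was listed at 0 in every library of 786-O. The renal factor PAX8 averaged 30.3 FPKM in shCBX7 and 37.8 FPKM in control cells of 786-O, while its levels in 5637 averaged at most 0.155 FPKM. Of 7 leukocyte markers, CD3E and MS4A1 were listed at 0 in every library of both lines and PTPRC averaged at most 0.0077 FPKM, but LAPTM5 averaged 37.5 FPKM in shCBX7 and 43.5 FPKM in control cells of 5637, and 8.07 FPKM in shCBX7 and 17.5 FPKM in control cells of 786-O (called lower in both lines). CORO1A averaged 14.9 FPKM in shCBX7 and 12.3 FPKM in control cells of 5637 (called higher). The summed level of the list was 53.7 to 54.3 FPKM in shCBX7 and 56.4 to 58.5 FPKM in control libraries of 5637, and 9.23 to 10.1 FPKM in shCBX7 and 17.4 to 21.7 FPKM in control libraries of 786-O, and its part in the repair results was not tested. The depth of a library, as reads recovered from the values, ranged between 17771325 and 29353270 in 5637 and between 16384151 and 18868874 in 786-O. Nothing in the sources says that libraries of a group came from separate cultures, so the spread that the p-values rest on may be technical.

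Levels below are FPKM, read fragments per length of gene and size of the library, and changes are differences of log2(FPKM + 1), shCBX7 minus control, which understate the change of genes with low levels. A gene was called where its adjusted p in limma was under 0.05. In 5637, 18 of the 31 repair genes were called (58.1%), against 44.5% of all 12689 genes tested. Of these, 8 were higher in shCBX7 cells (25.8%, against 24.4% of all tested genes) and 10 were lower (32.3%, against 20.2%). The share on the higher side thus lay near the background. In 786-O, 29 repair genes passed the filter of a mean of 0.5 FPKM and 11 were called (37.9%), below the 51.0% of all 13220 tested genes. A single gene was higher (3.45%, against 24.7%) and 10 were lower (34.5%, against 26.2%). The count of higher genes was 2 without shCBX7 library 2 and 3 without control library 1. The median change of the tested repair genes was 0.0295 in 5637, where that of all genes was 0.00953, and -0.102 in 786-O, where that of all genes was -0.0107. The genes left out in 786-O were BRCA2 and ERCC5, both at low levels. The changes were small in 5637, where the called genes lay between 81.5% and 128% of the control mean, and wider in 786-O, where they lay between 46.0% and 142%. RNA from bulk cells cannot tell fewer cells that express a gene from less RNA of it per cell.

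**Figure D1:**
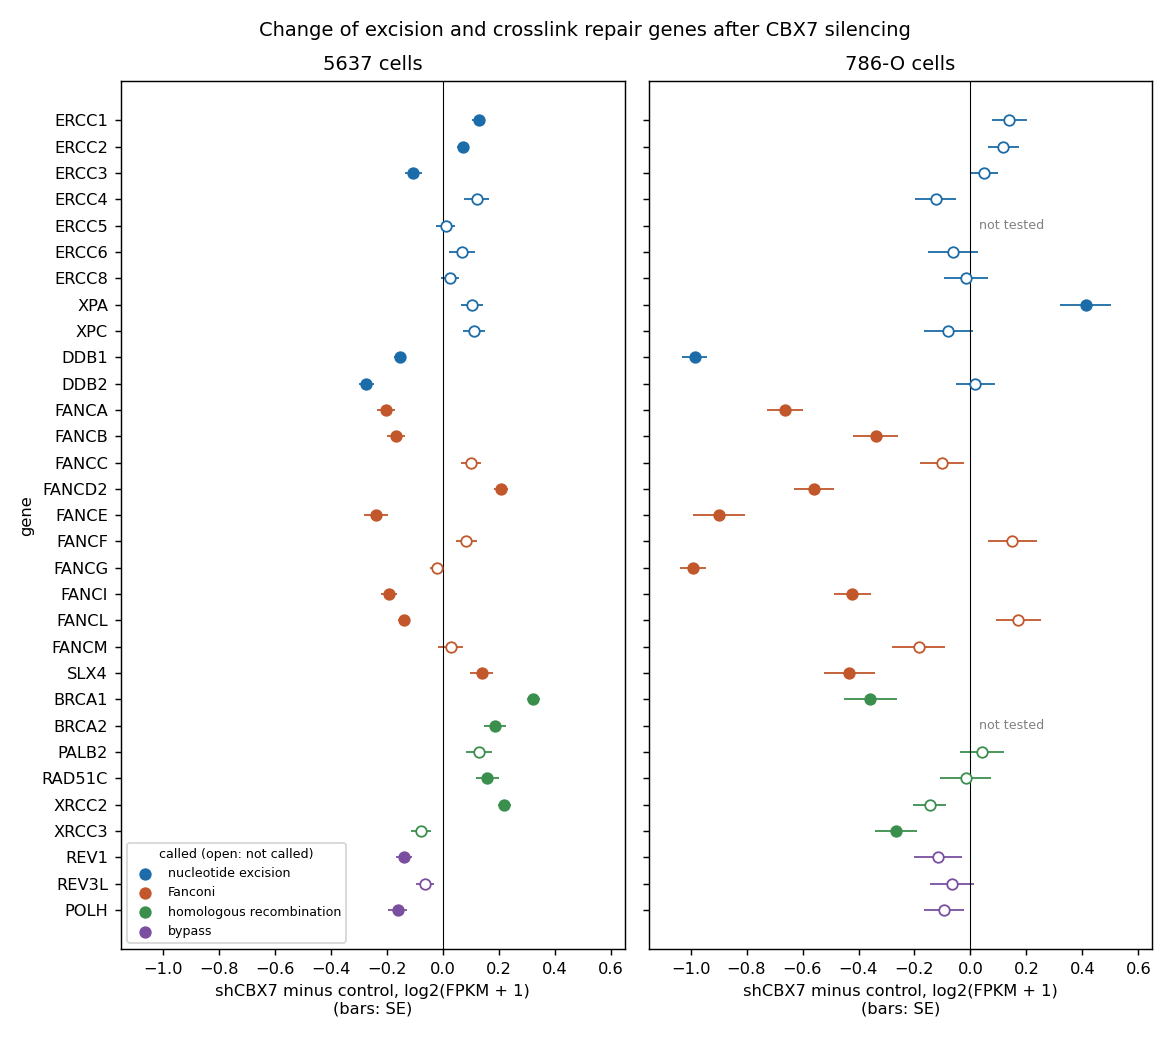
Change of each repair gene (shCBX7 minus control, log2(FPKM + 1), with SE) in 5637 on the left and 786-O on the right, coloured by role; filled points were called and open points were not. In 786-O, DDB1, FANCG and FANCE lie near -1, while in 5637 the called genes stay between -0.27 and 0.32.

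Among the nucleotide excision genes, DDB1 stood out. Damage recognition across the genome uses XPC and the pair of DDB1 and DDB2, and DDB1 is also the adaptor of CUL4 ubiquitin ligases. DDB1 had 9.10, 8.87 and 9.18 FPKM in shCBX7 libraries of 786-O, against 18.3, 19.1 and 19.2 FPKM in control libraries. Every shCBX7 library lay below every control library, at 47.9% of the control mean (log2 change -0.98, SE 0.0452, adjusted p = 4.81e-06). In 5637, DDB1 had 28.4, 29.1 and 28.7 FPKM in shCBX7 libraries and 32.0, 32.3 and 31.7 FPKM in control libraries. The groups were again apart, by less, at 89.6% of the control mean (log2 change -0.15, SE 0.0191, adjusted p = 0.000909). DDB2 is the subunit that binds the lesion, and a known p53 target. In 5637 it had 11.1, 11.6 and 11.5 FPKM with shCBX7 and 13.7, 14.2 and 14.2 FPKM in control cells. It fell there to 81.5% of the control mean, the largest fall among the repair genes of that line (log2 change -0.27, SE 0.0260, adjusted p = 0.000339). In 786-O, DDB2 had 3.71, 4.43 and 4.19 FPKM with shCBX7 and 4.15, 3.87 and 4.12 FPKM in control cells. Those groups overlapped (adjusted p = 0.844). The ratio of DDB2 to DDB1 was therefore 0.408, 0.5 and 0.457 in shCBX7 libraries of 786-O and 0.226, 0.202 and 0.214 in controls, and in 5637 it was 0.393, 0.400 and 0.402 in shCBX7 libraries and 0.427, 0.438 and 0.448 in controls. It was higher with shCBX7 in 786-O and lower in 5637, with no overlap in either line; the ratios were not tested. XPC, which senses the distorted helix, was not called (111% of the control mean in 5637, adjusted p = 0.0546, or 0.0407 with no variance trend, and 92.6% in 786-O, adjusted p = 0.475). Neither were the genes that couple repair to transcription, ERCC6 (110% in 5637 and 88.9% in 786-O) and ERCC8 (102% in 5637 and 97.8% in 786-O).

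XPA and the helicases of TFIIH follow recognition. XPA, which checks the lesion and holds the repair complex together, was the gene that rose in 786-O. It had 4.89, 6.38 and 5.2 FPKM in shCBX7 libraries and 3.59, 3.93 and 4.07 FPKM in control libraries of that line. All shCBX7 libraries were above the controls, at 142% of the control mean (log2 change 0.41, SE 0.0918, adjusted p = 0.00748), on 110 to 195 recovered reads per library. In 5637, XPA had 8.30, 7.46 and 7.86 FPKM with shCBX7 and 7.43, 7.14 and 7.18 FPKM in control cells. That difference was not called (109% of the control mean, adjusted p = 0.0648), but was without shCBX7 library 2 (0.0254) or with replicate number as a block (0.0498). The TFIIH helicases ERCC2 and ERCC3, which unwind DNA around the lesion, changed in opposite directions and little in 5637. ERCC2 had 10.2, 9.99 and 10.1 FPKM in shCBX7 libraries and 9.46, 9.66 and 9.59 FPKM in control libraries of 5637. The groups did not overlap, at 106% of the control mean (log2 change 0.07, SE 0.0222, adjusted p = 0.0335). ERCC3 had 14.1, 14.5 and 14.5 FPKM in shCBX7 libraries and 14.8, 15.8 and 16.0 FPKM in controls of 5637. It lay at 92.5% of the control mean, with no overlap (log2 change -0.10, SE 0.0314, adjusted p = 0.0312). These calls were narrow: that of ERCC2 was lost without any of the 6 libraries in turn (adjusted p 0.0540 to 0.113 over the 9 settings that lost it), and that of ERCC3 without any library but control library 1 (0.0602 to 0.0979 over 6 settings). In 786-O neither was called (ERCC2 at 109%, adjusted p = 0.112, and ERCC3 at 104%, adjusted p = 0.454), although ERCC2 was with quantile normalization (0.0432) or without control library 1 (0.0290).

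Among the incision genes, only ERCC1 was called within a line, in 5637. ERCC1, partner of the nuclease ERCC4 and the excision gene most often measured in tumours given cisplatin, had 10.1, 9.99 and 10.2 FPKM in shCBX7 libraries and 8.97, 9.30 and 9.19 FPKM in control libraries of 5637. It rose to 110% of the control mean, without overlap (log2 change 0.13, SE 0.0235, adjusted p = 0.00437). In 786-O, ERCC1 had 15.1, 15.3 and 14.9 FPKM with shCBX7 and 14.7, 12.5 and 13.9 FPKM in control cells. The shCBX7 libraries were the higher ones there too, at 111%, but this was not called (adjusted p = 0.105) except by voom (0.0472) or without control library 1 (0.0323), and the difference between lines was not called (difference -0.01, SE 0.0672, adjusted p = 0.917). ERCC4 was not called in 5637 (114% of the control mean, adjusted p = 0.0589) or in 786-O (84.1%, adjusted p = 0.191). In 5637 it was called by voom (0.0185), with no variance trend (0.0331) or with quantile normalization (0.0488). The ERCC4 groups overlapped in neither line, and its difference between lines was called (0.25, SE 0.0635, adjusted p = 0.00652). Its message was the scarcer of the pair in both lines, with 5.14 ± 0.181 units of ERCC1 per unit of ERCC4 in shCBX7 and 5.31 ± 0.410 in control cells of 5637, and 16.4 ± 0.528 in shCBX7 and 12.6 ± 1.99 in control cells of 786-O (ratio of FPKM, SD, n = 3). This ratio overlapped between groups in 5637 and did not overlap in 786-O. ERCC5, the nuclease of the other side of the lesion, had 0.149 ± 0.0548 FPKM in shCBX7 and 0.121 ± 0.0326 FPKM in control cells of 786-O (SD, n = 3), from 14 to 29 reads per library, and was not tested. In 5637 it lay at 101% of the control mean (adjusted p = 0.833). ERCC5 shares its strand with the overlapping genes BIVM and BIVM-ERCC5, so its reads may be split between them.

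The Fanconi genes gave most of the calls in 786-O, where 7 of 11 fell with shCBX7 (63.6%, against 26.2% of all tested genes) and none rose in limma, 0 also at an unadjusted p under 0.05 and by voom, with a median change of -0.42. In 5637, 5 of 11 fell (45.5%, against 20.2% of all tested genes) and 2 rose (18.2%, against 24.4%, so below the background), with a median of -0.02. FANCG, which with FANCA forms a module of the core ubiquitin ligase, had 10.5 FPKM in each of the shCBX7 libraries of 786-O and 22.2, 21.0 and 22.6 FPKM in control libraries. The level with shCBX7 was 48.0% of the control mean, with no overlap (log2 change -0.99, SE 0.0467, adjusted p = 5.31e-06). In 5637 the same gene had 16.4, 16.3 and 16.2 FPKM with shCBX7 and 16.2, 16.5 and 17.0 FPKM in control cells. Those groups overlapped (98.4%, adjusted p = 0.478). FANCA had 1.81, 1.76 and 1.65 FPKM in shCBX7 libraries and 3.57, 3.20 and 3.24 FPKM in control libraries of 786-O. It fell there to 52.1% of the control mean (log2 change -0.66, SE 0.0637, adjusted p = 0.000125). FANCA had 3.46, 3.36 and 3.50 FPKM in shCBX7 libraries and 4.18, 3.98 and 4.17 FPKM in control libraries of 5637. It fell there as well, to 83.7% (log2 change -0.20, SE 0.0319, adjusted p = 0.00242), and in neither line did the groups overlap. FANCG per FANCA was 4.73 ± 0.109 in shCBX7 and 4.03 ± 0.144 in control cells of 5637, and 6.04 ± 0.279 in shCBX7 and 6.57 ± 0.379 in control cells of 786-O (ratio of FPKM, SD, n = 3). The ratio overlapped between groups in 786-O and did not overlap in 5637.

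**Figure D2:**
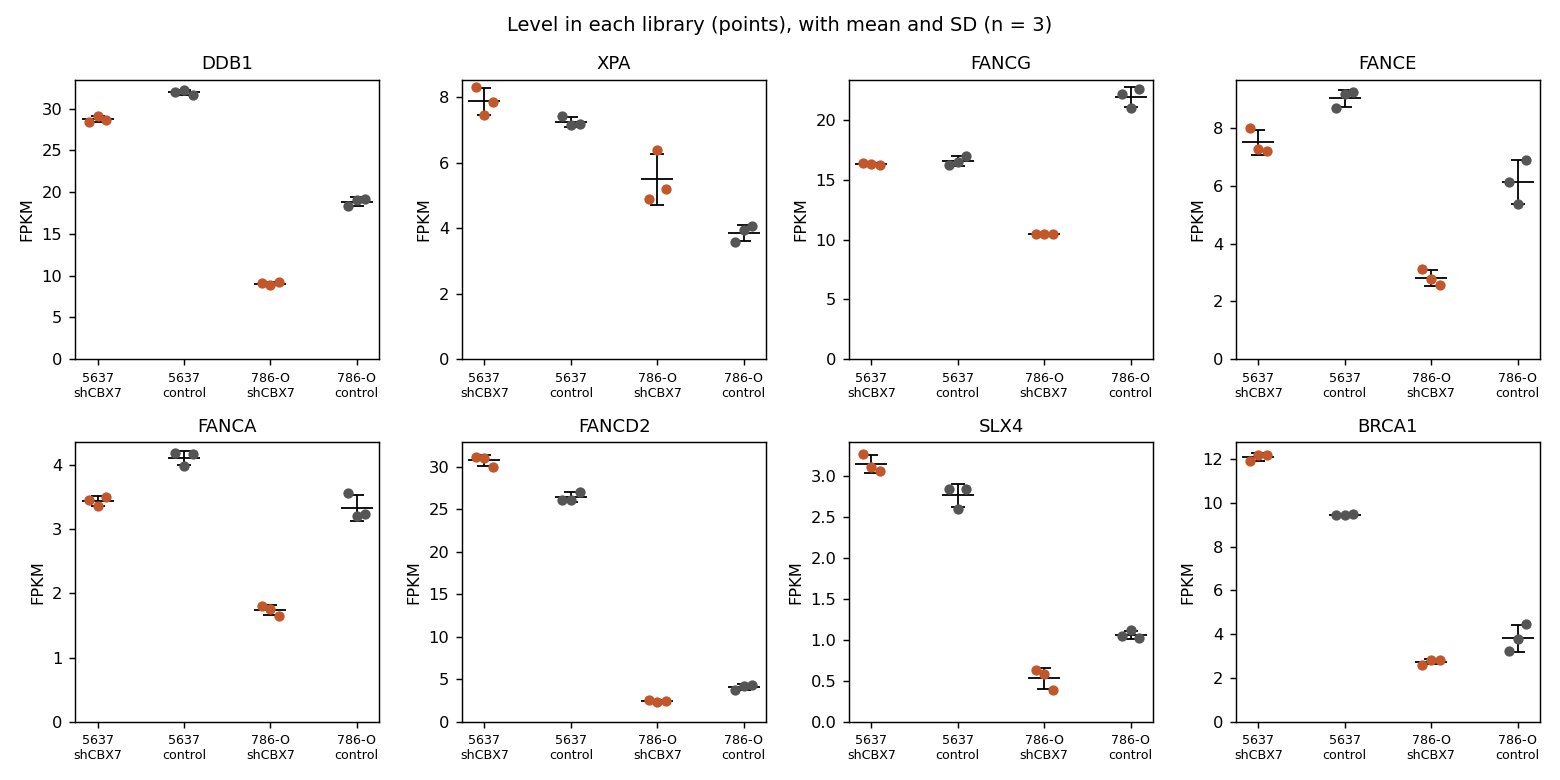
Level (FPKM) of 8 repair genes in each library (points), with mean and SD (bars, n = 3), for shCBX7 and control cells of 5637 and then of 786-O; each axis starts at 0. DDB1 and FANCG in 786-O fall to 47.9% and 48.0% of the control mean with little spread, and FANCD2, SLX4 and BRCA1 are higher with shCBX7 in 5637 and lower with it in 786-O.

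FANCE belongs to the module of FANCC, FANCE and FANCF that holds the target of the ligase. In 786-O, FANCE had 3.13, 2.76 and 2.58 FPKM with shCBX7 and 6.14, 5.39 and 6.91 FPKM in control cells. This was 46.0% of the control mean, with no overlap (log2 change -0.90, SE 0.0925, adjusted p = 0.000176). In 5637 it had 8.02, 7.29 and 7.23 FPKM with shCBX7 and 8.69, 9.18 and 9.25 FPKM in control cells. It fell there to 83.1% without overlap (log2 change -0.24, SE 0.0426, adjusted p = 0.00401). Its partners were not called in either line: FANCC lay at 109% in 5637 (adjusted p = 0.0542) and 89.1% in 786-O (0.311), and FANCF at 107% in 5637 (0.113) and 114% in 786-O (0.194). FANCC was called in 5637 with no variance trend (0.0486) or without shCBX7 library 1 (0.0352), and FANCF in 786-O without shCBX7 library 2 (0.0283). FANCF per FANCE was accordingly 1.37, 1.23 and 1.68 in shCBX7 libraries and 0.575, 0.614 and 0.532 in control libraries of 786-O, and 0.843, 1 and 0.99 in shCBX7 libraries and 0.735, 0.754 and 0.706 in control libraries of 5637. The ratio was higher with shCBX7 in every library of both lines. The catalytic module pairs FANCL, the ubiquitin ligase, with FANCB. FANCB had 1.20, 1.05 and 1.08 FPKM with shCBX7 and 1.5, 1.62 and 1.89 FPKM in control cells of 786-O, from 63 to 112 reads per library. It fell to 66.5% there (log2 change -0.34, SE 0.0805, adjusted p = 0.01). FANCB in 5637 had 13.3, 13.0 and 12.6 FPKM with shCBX7 and 14.2, 14.7 and 15.1 FPKM in control cells. It fell to 88.3% (log2 change -0.17, SE 0.0315, adjusted p = 0.00514), and the groups were apart in both lines. FANCL had 39.9, 40.0 and 38.9 FPKM with shCBX7 and 44.2, 43.4 and 43.4 FPKM in control cells of 5637. It fell to 90.6%, with no overlap (log2 change -0.14, SE 0.0197, adjusted p = 0.00158). The 786-O levels of FANCL were 5.40, 6.52 and 5.26 FPKM with shCBX7 and 4.94, 5.18 and 4.75 FPKM in control cells. These lay apart with shCBX7 higher, at 115%, but were not called (adjusted p = 0.113). FANCM, the translocase that anchors the core complex to DNA, was not called (103% in 5637, adjusted p = 0.627, and 71.2% in 786-O, adjusted p = 0.144, or 0.0410 by voom, from 75 to 135 reads per library).

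FANCD2 and FANCI form the clamp that the core complex marks with ubiquitin, and their messages moved apart in 5637. FANCD2 had 31.2, 31.1 and 30 FPKM with shCBX7 and 26.1, 26.1 and 27.1 FPKM in control cells of 5637. It rose to 116% of the control mean (log2 change 0.21, SE 0.0252, adjusted p = 0.000798). FANCI had 35.1, 36.6 and 34.8 FPKM with shCBX7 and 41.2, 39.5 and 41.3 FPKM in control cells. It fell to 87.2% (log2 change -0.19, SE 0.0279, adjusted p = 0.00171), and neither gene's groups overlapped. In 786-O both fell. There FANCD2 had 2.57, 2.32 and 2.44 FPKM in shCBX7 libraries and 3.68, 4.21 and 4.35 FPKM in control libraries. This was 59.8% of the control mean (log2 change -0.56, SE 0.0708, adjusted p = 0.000486). FANCI in that line had 5.13, 5.87 and 5.32 FPKM with shCBX7 and 7.14, 7.71 and 8.02 FPKM in control cells. It fell to 71.4% (log2 change -0.42, SE 0.0658, adjusted p = 0.00138), again without overlap. FANCD2 per FANCI was 0.890, 0.849 and 0.862 in shCBX7 libraries and 0.635, 0.661 and 0.657 in control libraries of 5637, and 0.5, 0.395 and 0.458 in shCBX7 libraries and 0.515, 0.547 and 0.543 in control libraries of 786-O. The ratio was higher with shCBX7 in 5637 and lower with it in 786-O, without overlap. FANCD2 has a pseudogene copy, FANCD2P2, whose reads the counting may have split from it.

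**Figure D3:**
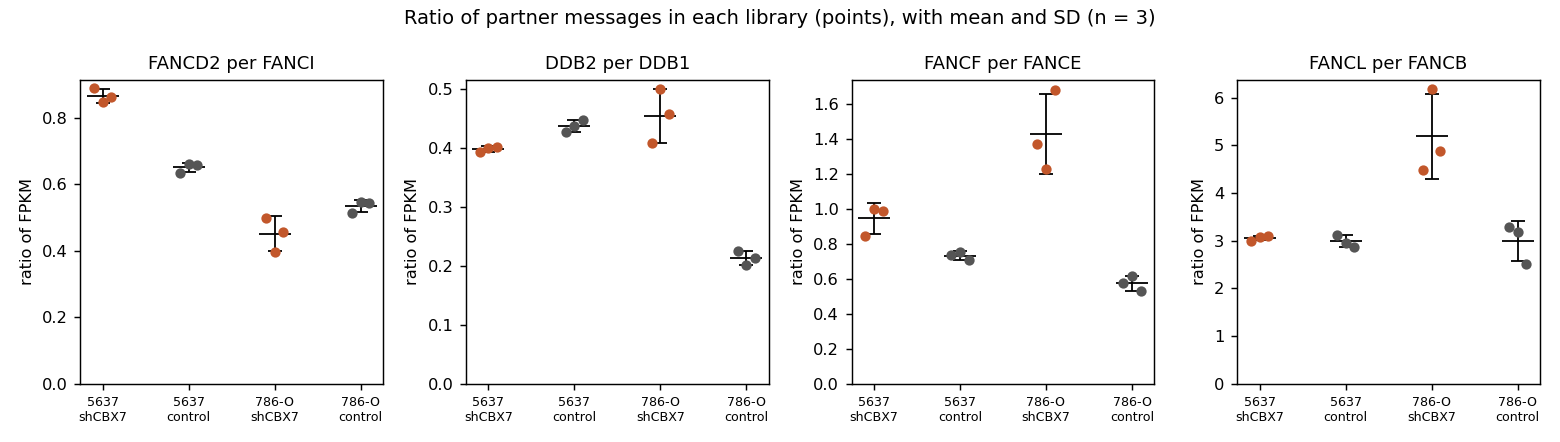
Ratio of FPKM between genes whose proteins work as partners, in each library (points) with mean and SD (bars, n = 3), for shCBX7 and control cells of 5637 and then of 786-O. FANCD2 per FANCI parts the groups in opposite directions in the lines, while FANCF per FANCE is higher with shCBX7 in both.

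SLX4 is the scaffold that brings nucleases to the crosslink. In 5637 it had 3.27, 3.12 and 3.06 FPKM with shCBX7 and 2.85, 2.60 and 2.85 FPKM in control cells. It rose to 114% there with no overlap (log2 change 0.14, SE 0.0412, adjusted p = 0.0296), a call that was lost without shCBX7 library 1 (adjusted p = 0.0837), without shCBX7 library 2 (0.0663) or without control library 2 (0.0802), and stayed above the threshold in 5 settings in all (0.0513 to 0.0837). In 786-O, SLX4 had 0.632, 0.579 and 0.385 FPKM with shCBX7 and 1.05, 1.12 and 1.02 FPKM in control cells, from 59 to 177 reads. It fell to 50%, every shCBX7 library lying below every control (log2 change -0.43, SE 0.0906, adjusted p = 0.00550).

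The promoters of FANCA, FANCD2, FANCG and XRCC2 are shown as Fanconi and recombination genes whose change differed between lines. They were chosen after their values were seen, and because they contrast in a motif of replication genes. BRCA1, FANCE and SLX4 differed more between lines than XRCC2 and are not shown. The sequences run from 200 bases before to 30 bases after the gene start, from RefSeq on GRCh38.p14, each 5′ to 3′ on the gene's own strand. Capitals mark matches on either strand to an E2F motif, TTTNNCGC with each N a C or a G. E2F factors switch on genes of DNA replication and of several repair pathways.
FANCA, chr16:89816618-89816847, minus strand: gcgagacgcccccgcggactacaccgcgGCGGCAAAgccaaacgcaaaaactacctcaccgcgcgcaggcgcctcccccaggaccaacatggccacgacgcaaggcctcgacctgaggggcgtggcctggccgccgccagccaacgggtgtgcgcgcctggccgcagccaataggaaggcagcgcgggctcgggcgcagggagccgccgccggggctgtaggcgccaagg
FANCD2, chr3:10026237-10026466, plus strand: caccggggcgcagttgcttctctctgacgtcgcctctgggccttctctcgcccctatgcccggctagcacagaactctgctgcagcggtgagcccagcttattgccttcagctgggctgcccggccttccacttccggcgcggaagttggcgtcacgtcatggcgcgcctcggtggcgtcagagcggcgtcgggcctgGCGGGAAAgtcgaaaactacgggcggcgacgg
FANCG, chr9:35079913-35080142, minus strand: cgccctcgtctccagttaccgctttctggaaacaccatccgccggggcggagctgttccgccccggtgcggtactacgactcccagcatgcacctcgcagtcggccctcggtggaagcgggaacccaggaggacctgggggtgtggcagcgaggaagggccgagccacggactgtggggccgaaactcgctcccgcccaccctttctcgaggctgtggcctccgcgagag
XRCC2, chr7:152676112-152676341, minus strand: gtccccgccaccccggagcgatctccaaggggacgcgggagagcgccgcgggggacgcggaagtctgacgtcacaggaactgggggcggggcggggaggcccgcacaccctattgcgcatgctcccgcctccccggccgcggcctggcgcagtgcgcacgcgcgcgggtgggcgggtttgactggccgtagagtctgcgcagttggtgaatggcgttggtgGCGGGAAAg
RefSeq gave a window of 300 bases (250 before to 50 after the start) for 30 of the 31 genes, with FANCI not matched. The motif was found in 6 of them (20%), FANCA, FANCC, FANCD2, XPC, XRCC2 and REV3L, and in 3.99% of all 27305 symbols with a window. Those symbols were not matched to the repair genes in kind of gene or base content, and the shares were not tested. It was thus present in FANCA and FANCD2, which fell in 786-O, and in XPC, FANCC, XRCC2 and REV3L, which were not called there. The window of FANCG held no match, and FANCG had the largest fall on the log2 scale among the repair genes of 786-O. The windows of DDB1, FANCB, FANCE, SLX4, BRCA1 and XRCC3, which also fell in 786-O, held no match either. A match describes the letters of a window only.

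Homologous recombination genes were higher with shCBX7 in 5637, where 4 of 6 rose and none fell (66.7%, against 24.4% of all tested genes). In 786-O, 2 of the 5 tested fell (40%, against 26.2% of all tested genes) and none rose. Both counts of 0 in limma were also 0 at an unadjusted p under 0.05 and by voom, which tested 5 of these genes in each line. BRCA1, which starts repair by recombination and recruits its partners, had 11.9, 12.2 and 12.2 FPKM in shCBX7 libraries and 9.43, 9.44 and 9.50 FPKM in control libraries of 5637. It rose to 128% of the control mean with no overlap, the largest rise among the repair genes of that line (log2 change 0.32, SE 0.0219, adjusted p = 9.63e-05). In 786-O, BRCA1 had 2.61, 2.83 and 2.80 FPKM with shCBX7 and 3.24, 3.76 and 4.47 FPKM in control cells. The groups did not overlap, at 71.8% (log2 change -0.36, SE 0.0950, adjusted p = 0.0158), but the control libraries were spread and the call was lost without shCBX7 library 1 (adjusted p = 0.0536) and with no filter on low levels (0.0529). BRCA2, which acts at the core of strand exchange, had 2.15, 2.25 and 2.28 FPKM with shCBX7 and 1.90, 1.84 and 1.77 FPKM in control cells of 5637. It rose to 121%, without overlap (log2 change 0.19, SE 0.0387, adjusted p = 0.00756). In 786-O, BRCA2 had 0.342 ± 0.0971 FPKM with shCBX7 and 0.367 ± 0.0812 FPKM in control cells (SD, n = 3), from 56 to 99 reads, and was not tested. PALB2, which links BRCA1 to BRCA2, was not called (112% in 5637, adjusted p = 0.0535, and 104% in 786-O, adjusted p = 0.691). In 5637 it was called by voom (adjusted p = 0.0201), with replicate number as a block (0.0376) and without shCBX7 library 1 (0.0383) or control library 2 (0.0496).

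RAD51C, XRCC2 and XRCC3 work in complexes that assist strand exchange. XRCC2 had 10.8, 10.9 and 10.8 FPKM with shCBX7 and 9.34, 9.13 and 9.01 FPKM in control cells of 5637. It rose to 118%, without overlap (log2 change 0.22, SE 0.0226, adjusted p = 0.000438). In 786-O it had 2.54, 2.52 and 2.67 FPKM with shCBX7 and 3.01, 2.79 and 3.07 FPKM in control cells. All shCBX7 libraries lay below the controls, at 87.2%, which was not called (adjusted p = 0.0762). RAD51C had 5.70, 5.42 and 5.58 FPKM with shCBX7 and 4.56, 5.11 and 4.99 FPKM in control cells of 5637. It rose to 114% without overlap (log2 change 0.16, SE 0.0414, adjusted p = 0.0184), a call lost without shCBX7 library 1 (0.0547) or 3 (0.0521). In 786-O, RAD51C lay at 98.0% of the control mean with overlapping groups (adjusted p = 0.889). XRCC3 had 4.70, 5.62 and 4.96 FPKM with shCBX7 and 6.81, 6.06 and 6.10 FPKM in control cells of 786-O. It fell to 80.5% without overlap (log2 change -0.27, SE 0.0746, adjusted p = 0.0194), a call lost without shCBX7 library 1 (0.0672) or 3 (0.0612) and with no filter on low levels (0.0526). In 5637, XRCC3 lay at 93.6%, with overlap (adjusted p = 0.119).

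Of the lesion bypass genes, 2 of 3 fell in 5637 (66.7%, against 20.2% of all tested genes), and none was called in 786-O by limma, where 51.0% of all genes were, with 0 also at an unadjusted p under 0.05 and by voom. POLH encodes polymerase eta, which copies past platinum lesions within a strand. It had 9.39, 9.66 and 9.05 FPKM with shCBX7 and 10.2, 10.5 and 11.0 FPKM in control cells of 5637, and fell to 88.5% without overlap (log2 change -0.16, SE 0.0343, adjusted p = 0.00851). POLH has a pseudogene copy, POLHP1, whose reads the counting may have split from it. REV1, the scaffold that recruits other bypass polymerases, had 6.73, 6.87 and 6.57 FPKM with shCBX7 and 7.34, 7.65 and 7.50 FPKM in control cells. It fell to 89.6% without overlap (log2 change -0.14, SE 0.0275, adjusted p = 0.00636). REV3L, the catalytic subunit of polymerase zeta, lay at 94.8% and was not called (adjusted p = 0.154). In 786-O all 3 lay under the control mean with overlapping groups: POLH at 93.0% (adjusted p = 0.296), REV1 at 89.1% (0.286) and REV3L at 89.5% (0.503). The differences between lines were within their error for all 3 (REV1 -0.02, SE 0.0841; REV3L 0.00, SE 0.0562; POLH -0.07, SE 0.0788), which does not show that the lines respond alike.

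The change with shCBX7 differed between lines in 15 of the 31 genes (48.4%), against 53.3% of the 12777 genes tested for it, so the total was near the background. Of these, 11 were higher in 5637 than in 786-O (35.5%, against 29.0%) and 4 were lower (12.9%, against 24.3%). The filter for this contrast was a mean of 0.5 FPKM over all 12 libraries. BRCA2 and ERCC5, left out in 786-O, passed it through their levels in 5637, and the 12777 may hold other such genes. Neither difference was called (BRCA2 0.21, adjusted p = 0.0508, and ERCC5 -0.02, adjusted p = 0.77). The Fanconi genes gave 8 of the 15, or 72.7% of the 11 Fanconi genes, against 53.3% of all tested genes. FANCD2 (difference 0.77, SE 0.0703, adjusted p = 3.44e-06), SLX4 (0.57, SE 0.0844, adjusted p = 0.000146) and BRCA1 (0.68, SE 0.1, adjusted p = 0.000140) were called in both lines in opposite directions. FANCG and DDB1 had the largest differences, 0.97 (SE 0.0469, adjusted p = 2.31e-08) and 0.83 (SE 0.0418, adjusted p = 3.25e-08). XRCC2 rose in 5637 and its difference was called (0.36, SE 0.0509, adjusted p = 9.63e-05). FANCA and FANCE fell in both lines and fell more in 786-O (differences 0.46 and 0.66). FANCB fell in both, to 88.3% of the control mean in 5637 and 66.5% in 786-O. Its difference was not called (0.17, SE 0.0754, adjusted p = 0.0760). The scale understates its fall in 786-O, where the control mean was 1.67 FPKM.

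Other genes of these pathways, which were not among the 31, did not all follow them. Their counts are to be read against 24.4% of all tested genes higher and 20.2% lower in 5637, and 24.7% higher and 26.2% lower in 786-O, and several lie near or below these shares. In 786-O, the wider Fanconi list had 3 higher and 7 lower of 16 tested, among them the ubiquitin-conjugating partner UBE2T (65.7% of the control mean), the core subunit FAAP100 (54.6%) and the ubiquitin ligase RFWD3 (62.6%), all lower. In 5637 the same list had 5 higher and 2 lower of 15, led by the helicase BRIP1 (137%), FAAP100 (125%) and the nuclease MUS81 (131%), all higher. FAAP100, which binds FANCB and FANCL, was therefore called in opposite directions in the lines. The wider excision list had 6 higher and 3 lower of 20 in 5637, with the TFIIH subunits GTF2H3 (145%) and GTF2H1 (122%) higher and the XPA-binding XAB2 (86.6%) lower. In 786-O it had 4 higher and 7 lower of 20, with the single-strand binding subunit RPA2 (64.9%), the CUL4 ligase subunit RBX1 (69.5%) and the ligase LIG3 (49.3%) lower. Wider recombination genes were 8 higher and 3 lower of 22 in 5637, among them the deubiquitinase BRCC3 (154%) and the end-resection factor RBBP8 (123%), both higher. In 786-O they were 2 higher and 2 lower of 21, with SFR1 (160%) and SWI5 (122%) higher and the nuclease DNA2 (54.4%) lower. Wider bypass genes were 3 higher and 2 lower of 9 in 5637, where HLTF lay at 129%, RAD18 at 86.1% and POLI at 86.9%, and 3 higher and 1 lower of 8 in 786-O, where RAD18 lay at 64.7%, UBE2A at 114% and UBE2B at 122%. RAD18, the ligase that marks the sliding clamp for bypass, fell in both lines. Mismatch repair genes, which respond to platinum lesions without removing them, were 4 higher and 0 lower of 7 in 5637 (PMS2 119% and MLH3 127%) and 0 higher and 5 lower of 7 in 786-O (PMS1 54.7% and MSH6 75.7%). At an unadjusted p under 0.05 the counts of 0 in limma became 1 lower in 5637, as by voom, and stayed 0 in 786-O. Of the damage kinases and their clamp, 1 was higher and 3 lower of 12 in 5637 (ATR 120%, RAD9A 84.9% and RAD1 88.8%), and 1 was higher and 7 lower of 11 in 786-O (CHEK1 69.9%, CLSPN 64.0% and ATRIP 64.7%).

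**Figure D4:**
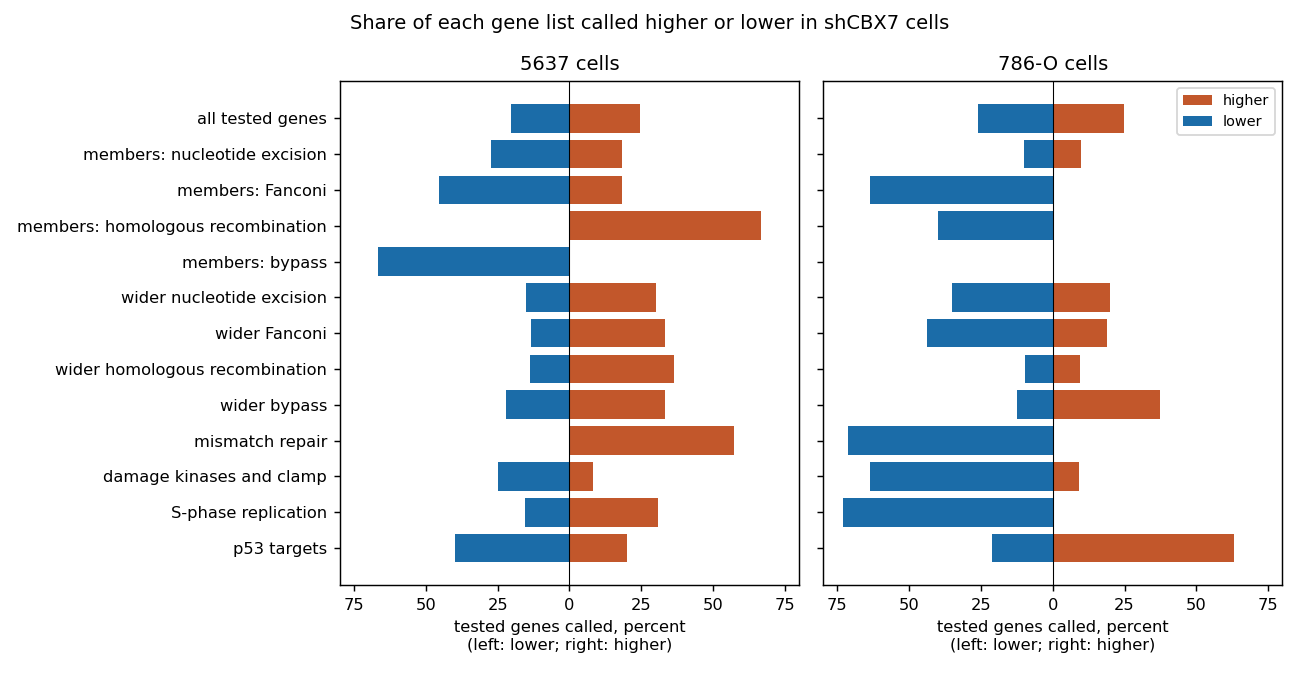
Percent of the tested genes of each list that were called lower (blue, left of 0) or higher (orange, right of 0) in shCBX7 cells of 5637 and of 786-O, with all tested genes in the top row. In 786-O the Fanconi members, recombination members, mismatch repair and S-phase replication lists lie only on the lower side. The damage kinases lie mostly on the lower side there, and the p53 targets mostly on the higher side. In 5637 the recombination members and mismatch repair lie only on the higher side, and the bypass members only on the lower side.

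Most genes of DNA replication fell in 786-O, as did 7 of the 11 Fanconi genes, but not most of the nucleotide excision or bypass genes. Of 26 S-phase genes, 19 fell, where 26.2% of all tested genes did, and none rose in limma (0 also at an unadjusted p under 0.05 and by voom; median change -0.35), led by the replicative helicase subunits MCM6 (46.5% of the control mean), MCM4 (58.9%) and MCM7 (64.5%). The summed level of the list was 539 to 565 FPKM in shCBX7 libraries and 748 to 787 FPKM in control libraries. In 5637, 8 rose and 4 fell of 26 (median change 0.02), where 24.4% of all tested genes rose and 20.2% fell. CDT1 lay at 81.7%, CDC45 at 124% and POLA1 at 113%. The summed level was 732 to 735 FPKM in shCBX7 and 719 to 722 FPKM in control libraries of 5637. Several repair genes, FANCD2, FANCI and BRCA1 among them, are known to be expressed chiefly in cycling cells. The part of these replication genes in the falls of the Fanconi genes was not tested. Of 19 tested p53 target genes, 12 rose and 4 fell in 786-O (median change 0.42), where 24.7% of all tested genes rose and 26.2% fell. FAS (321%), CDKN1A (302%) and TNFRSF10B (174%) rose there, while TP53I3 (38.2%) and RRM2B (50.6%) were among those that fell. In 5637, 4 rose and 8 fell of 20 (TP53INP1 84.3%, RRM2B 85.1% and CDKN1A 92.3%), against 24.4% and 20.2% of all tested genes. DDB2, itself a p53 target, was among the genes that fell in 5637, and in 786-O it lay at 102% of the control mean.

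The library kit keeps the strand, but the sources used here do not give the strand setting of the counting, and 12 of the 31 genes overlap a coding gene on the opposite strand. The overlapping genes did not always move with them. TKFC, which overlaps DDB1, had 2.54 ± 0.349 FPKM with shCBX7 and 2.97 ± 0.335 FPKM in control cells of 786-O, with overlapping groups. ZNF276, which overlaps FANCA, had 1.28 ± 0.0980 FPKM with shCBX7 and 1.29 ± 0.160 FPKM in control cells of that line (SD, n = 3). POLG, which overlaps FANCI, fell in 786-O (80.1% of the control mean) and in 5637 (92.3%), as FANCI did. VRK2, which overlaps FANCL, fell to 62.0% in 786-O, where FANCL was not called. FANCD2OS, which overlaps FANCD2, averaged at most 0.0105 FPKM in 786-O.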

How the data were processed

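RNA was sequenced from 12 libraries in 4 groups of 3, from total RNA with a directional kit, per the protocols in the labels. Each line has its own table of FPKM, deposited by the authors with 1 value for every gene in every library. What aligned and counted the reads is not given in the sources used here. For build, mm10 is named in the submitters' processing notes, which is a mouse genome, while the samples are human. Gene positions of all 58735 rows of the 786-O table equal those of GENCODE release 29. The column of gene lengths in that table, another kind of deposited value, served to recover reads from the FPKM steps (tolerance 0.01 of a read). These were whole for every gene in 786-O and for 93.9% in 5637, with 8 of the repair genes not whole in 5637. Control columns of 5637 carry no name that points to a single sample, only to the group, the headers write si where the titles write sh, and the titles of some control libraries of 5637 carry another number while the cell line label says 5637. The number of columns of per-sample values not used was 0.

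Values were taken as log2(FPKM + 1). Genes whose mean reached 0.5 FPKM over the 6 libraries of a line were fitted with limma 3.58.1 under R 4.3.3 (lmFit and eBayes, variance trend on) on the whole table, within each line. The difference between lines, 5637 minus 786-O, was the interaction contrast over all 12 libraries, for genes whose mean over these 12 reached 0.5 FPKM. The Benjamini-Hochberg adjustment ran over all tested genes, with a threshold of 0.05. All 31 repair genes are accounted for, with values per library for those called in at least 1 line, and of each wider list the 3 called genes with the smallest p in each line are named, except some that are not reported here. The overlapping genes were named for their position. The members and lists were chosen with earlier results of these data known. Ratios and lists were described without a test. Alternatives tried were a pseudocount of 0.1, leaving out the filter, quantile normalization, median centring, no trend, voom on recovered reads, a replicate block and each library left out in turn. The fits were tested on simulated data.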

Additional observations from a re-analysis of the deposited data

Results flagged for a closer look

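The change with shCBX7 differed between the lines, by the interaction term of limma, in 15 repair genes. All differences are 5637 minus 786-O on the log2(FPKM + 1) scale. On the positive side were FANCG (0.97), DDB1 (0.83), FANCD2 (0.77), BRCA1 (0.68), FANCE (0.66), SLX4 (0.57), FANCA (0.46), XRCC2 (0.36), ERCC4 (0.25), FANCI (0.23) and FANCC (0.20). The negative side held FANCL (-0.31), XPA (-0.31), DDB2 (-0.29) and ERCC3 (-0.15). ERCC4 and FANCC were not called within either line, so their difference rests on opposite changes that missed the threshold in both. FANCL fell in 5637 (log2 change -0.14) and had a value of 0.17 in 786-O that was not called. XPA rose in 786-O (0.41) and had 0.10 in 5637. The differences of FANCC (0.16 to 0.26 with a library left out), XPA (-0.37 to -0.21) and ERCC3 (-0.18 to -0.13) each lost the call in some settings: XPA without shCBX7 library 2 or control library 1 of 5637 or control library 1 of 786-O, ERCC3 without shCBX7 library 1 or control library 2 or 3 of 5637 or shCBX7 library 2 of 786-O, and FANCC without any library but shCBX7 library 1 of 5637 and shCBX7 libraries 2 and 3 and control library 3 of 786-O.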

How the results depend on the processing

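Of the called genes, 14 of 18 in 5637, 9 of 11 in 786-O and 12 of 15 between lines were called in every alternative that could be run, and none reversed. Genes not called that were called somewhere were 5 of 13 in 5637 (ERCC4, FANCC, PALB2, XPA and XPC) and 4 of 18 in 786-O (ERCC1, ERCC2, FANCF and FANCM), each in the same direction. Those that lost the call somewhere were ERCC2, ERCC3, SLX4 and RAD51C in 5637, BRCA1 and XRCC3 in 786-O, and ERCC3, XPA and FANCC between lines (FANCC in 12 settings, adjusted p 0.0557 to 0.0974; XPA in 4, 0.0553 to 0.0659; ERCC3 in 4, 0.0706 to 0.0820). For differences between lines that were not called, the alternatives were not examined. The count of genes higher in 786-O was 2 with quantile normalization, 2 with voom and 1 to 3 with a library left out (2 without shCBX7 library 2 and 3 without control library 1). The CBX7 change in 5637 was -0.20 to -0.14 with a library left out, and lost its call without shCBX7 library 2 (-0.16, adjusted p = 0.0608) or control library 3 (-0.14, adjusted p = 0.0586). Genes that reversed were not called: ERCC5 in 5637 with median centring (-0.00403) or a library left out (-0.001445 to 0.02271), and ERCC8 in 5637 with quantile normalization (-0.0006575). In 786-O, with a library left out, they were ERCC8 (-0.07498 to 0.02662), DDB2 (-0.02731 to 0.07514), PALB2 (-0.01741 to 0.08029) and RAD51C (-0.1067 to 0.06383). The cause was not tested. With a replicate block, 9 repair genes were higher and 10 lower in 5637 (4942 genes called in all) and 1 and 10 in 786-O (6723 in all). In 5637 the block called XPA (adjusted p = 0.0498) and PALB2 (0.0376) and lost ERCC2 (0.0914). Same-numbered libraries correlated at -0.0314 to 0.02343 in 5637 and 0.05701 to 0.08335 in 786-O, where each library correlated best with its own number. These small values do not settle whether the numbers pair the libraries. In 5637 the control columns are not tied to single samples, so their numbers cannot show it. Low read numbers limit BRCA2, ERCC5, SLX4, FANCB and FANCM in 786-O.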
